A study of Mus musculus with 4 samples.

Results

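Convergent transcription at 6 loci of B cell transcription factors was examined in activated mouse B cells that were either unsynchronized or in early G1. The loci are windows of the mouse build mm9 around Pax5 (chr4:44520000-44750000), Ebf1 (chr11:44400000-44850000), Bcl6 (chr16:23940000-24010000), Ikzf1 (chr11:11560000-11700000), Irf4 (chr13:30820000-30880000) and Irf8 (chr8:123240000-123300000). Every deposited region with at least 1 base inside a window was taken, since the region lists name no genes. This gave 162 of 47975 regions over the 4 libraries. Where regions of different libraries shared at least 1 base they were merged, which left 62 merged regions of 20175, with 10 at Pax5, 26 at Ebf1, 3 at Bcl6, 13 at Ikzf1, 5 at Irf4 and 5 at Irf8. Of these, 17 (27.4%) were called in all 4 libraries and 45 were not, with 24.6% of all merged regions called in all 4. At the window edges, 2 merged regions also take in pieces that lie outside: chr8:123239068-123240338 at Irf8, 1 of the 17, where only early G1 replicate 1 reaches in, and chr11:11699682-11701216 at Ikzf1, where only unsynchronized replicate 1 does.

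The assay was global run-on sequencing (GRO-seq) of nuclei, in which engaged RNA polymerases extend their nascent transcripts and the labelled RNA is sequenced with its strand. All 4 libraries came from splenic B cells of C57BL/6 mice that carry Fucci-EGFP+, a fluorescent marker of cell cycle phase, and were activated in culture by LPS, IL4 and Rp105, with nuclei from about 20000000 cells per library. The 2 unsynchronized libraries were not ordered by cell cycle phase. The 2 early G1 libraries came from cells held in mitosis with nocodazole (100 ng/ml, added at 42 h after isolation, for 6 h), sorted for EGFP, returned to culture for 1.5 h and sorted again. The deposited name of early G1 replicate 1 gives 1 h instead. Drug, sorting and cell cycle phase go together in these groups and cannot be told apart. No label states whether replicates are separate mice or cultures, so a p-value here rests on a spread that may be technical. No other marker gene was placed on the mm9 positions, so only these 6 windows could be read for the labelled cell type. Each window held a call in every library, but so did 3229 bins of 200 kb that touch no window. Such calls therefore do not establish the cell type.

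The 6 genes encode factors that direct B cell identity and its later stages. Ebf1 specifies the B lineage and Pax5 commits cells to it, while Ikzf1 encodes Ikaros, a zinc finger protein needed in all lymphoid lineages. Bcl6 encodes a repressor that germinal centre B cells need. Irf4 and Irf8 encode interferon regulatory factors that take part in B cell activation, with Irf4 also needed for plasma cell formation and class switching. Convergent transcription is the passage of polymerases over the same DNA on both strands. It is known from genes that contain active enhancers, and in activated B cells from sites that activation-induced cytidine deaminase (AID) mutates outside the immunoglobulin genes.

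The annotated starts of 3 of the genes show the kind of sequence found at these loci. Ikzf1 and Pax5 are shown because their windows held the highest levels, and Irf8 because its window had the largest log2 change between the groups. The sequences are RefSeq's promoters of GRCm38.p6 (250 bases before to 50 after the most upstream start listed), and all 6 genes were found in that table, with 10 starts. They are of another build than the regions, so no region was placed on them. Capitals mark AGCT, which reads the same on both strands and is a preferred core of AID.
Pax5, chr4:44710645-44710944, minus strand: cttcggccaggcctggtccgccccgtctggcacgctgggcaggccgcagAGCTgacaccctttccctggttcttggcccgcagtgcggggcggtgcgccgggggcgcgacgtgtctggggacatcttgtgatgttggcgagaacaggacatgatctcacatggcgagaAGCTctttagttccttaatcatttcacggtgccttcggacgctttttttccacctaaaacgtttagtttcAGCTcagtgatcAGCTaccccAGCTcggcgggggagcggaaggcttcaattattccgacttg
Ikzf1, chr11:11685675-11685974, plus strand: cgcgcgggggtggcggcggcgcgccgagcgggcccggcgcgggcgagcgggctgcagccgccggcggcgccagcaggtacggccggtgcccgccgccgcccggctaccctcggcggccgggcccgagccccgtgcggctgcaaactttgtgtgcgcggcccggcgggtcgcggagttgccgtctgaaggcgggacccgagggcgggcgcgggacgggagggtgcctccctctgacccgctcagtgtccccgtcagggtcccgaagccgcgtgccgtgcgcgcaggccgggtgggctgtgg
Irf8, chr8:120736108-120736407, plus strand: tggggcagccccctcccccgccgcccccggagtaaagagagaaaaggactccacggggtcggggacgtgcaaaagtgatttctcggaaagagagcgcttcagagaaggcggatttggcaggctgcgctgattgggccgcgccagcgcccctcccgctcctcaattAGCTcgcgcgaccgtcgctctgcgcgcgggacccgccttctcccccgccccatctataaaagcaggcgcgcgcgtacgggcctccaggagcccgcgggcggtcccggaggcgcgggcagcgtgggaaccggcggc
AGCT occurred 5 times in the Pax5 sequence, once in that of Irf8 and not in that of Ikzf1, whose GC content was 81.3% with 52 CG pairs. The GC content was 59.0% with 23 CG pairs at Pax5 and 70.0% with 38 at Irf8. Over the 10 starts of the 6 genes, 8 (80.0%) held AGCT, against 77.6% of all 32851 promoters of that length. The median GC content of the 10 was 56.8%, and that of all promoters 52.7%.

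The value of a region is the signal that the authors deposited, a geometric mean of both strands, per length and per library. The square of signal times length was a whole multiple of 1 constant per library in 100.0% of the regions tested (tolerance 0.1). Only regions with a multiple below 5000 were tested, and the constant was itself fitted on such regions. These were 2833 of 12538 and 2351 of 11961 in unsynchronized cells and 3384 of 12768 and 2164 of 10708 in early G1. If the mean is of both strands, the read number behind a region can be recovered as the geometric mean of its sense and antisense reads. This is what "reads" means below. Under an RPKM-like scaling the constants imply depths of about 14716000 and 13476000 reads for unsynchronized cells and of 8165000 and 9525000 reads for early G1, so depth differed with the group. The median region of the windows held 273 and 338 reads in unsynchronized cells and 276 and 249 in early G1. Counting alone thus puts an error of no less than 3.85% to 4.48% on its signal. Over the 4972 regions called in all 4 libraries, the signal lay higher in early G1 by a median log2 change of 0.41, so changes at the loci are read against that value.

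The regions called in the windows were 48 and 42 in unsynchronized cells and 46 and 26 in early G1. They covered 93.4 and 83.4 kb against 99.2 and 55.7 kb. Early G1 replicate 2 was thus the lowest in both measures, and the other early G1 library lay within or above the unsynchronized pair. The difference between the groups was -9 regions and -10.98 kb (exact two-sided permutation p = 0.667 and 1.0; 0.333 is the smallest that 2 against 2 libraries allow), and it was 1 region and 10.8 kb without early G1 replicate 2. Regions of the windows had median lengths of 1484 and 1374.5 bp in unsynchronized cells and 1536.5 and 1175.5 bp in early G1, while those of all regions were 991, 884, 972 and 852 bp. Their median signals of 13.5, 22.7, 20.0 and 28.2 were likewise above those of all regions, at 10.7, 14.96, 17.2 and 20.3.

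**Figure D1:**
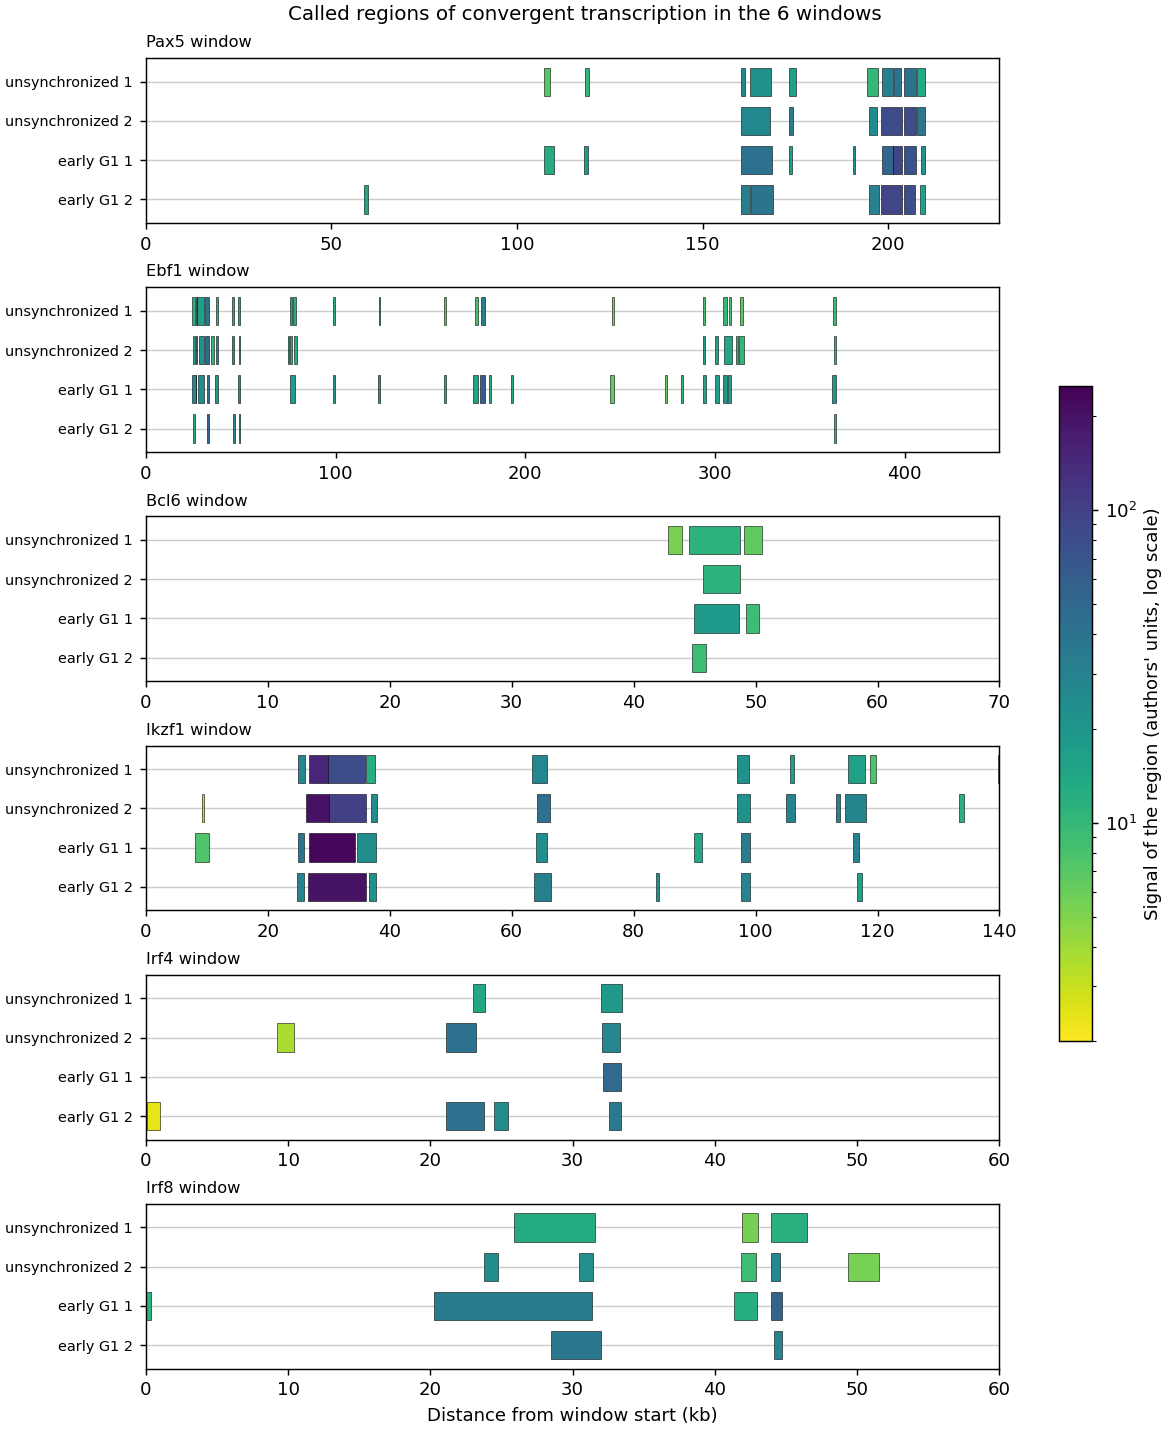
Called regions in each window (x axis: distance from the window start in kb; 1 row per library; colour: signal in the authors' units on a log scale). Regions called in all 4 libraries are 4 of 10 at Pax5, 1 of 3 at Bcl6 and 4 of 13 at Ikzf1. They are 1 of 5 at Irf4, 3 of 5 at Irf8 and 4 of 26 at Ebf1, with 24.6% over the whole series. Of the 3 at Irf8, 1 is the edge region chr8:123239068-123240338. Only its piece in early G1 replicate 1 reaches into the window, and the pieces of the other libraries are not drawn. In the Ebf1 window the rows of both replicates 2 are empty between 79.6 and 293.9 kb.

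The 6 loci differed widely in level. Summed signal (signal times length) per kb of window was highest at Ikzf1, with a mean of 12.5 ± 2.99 (SD, n = 4 libraries), followed by Pax5 at 4.30 ± 1.25, Irf8 at 3.26 ± 2.76, Irf4 at 1.63 ± 0.95, Ebf1 at 1.04 ± 0.60 and Bcl6 at 0.65 ± 0.42. The lowest library at Ikzf1 (8.47) was above the highest library at Pax5 (5.23), so this step exceeded the spread. Every later pair of neighbours in the order overlapped in its libraries. Set beside the 3229 bins of 200 kb that touch no window and have a region in all 4 libraries, whose median level was 0.31, Ikzf1 lay at the 99.9th percentile, Pax5 at the 98.1st, Irf8 at the 96.9th, Irf4 at the 89.2nd, Ebf1 at the 82.4th and Bcl6 at the 71.1st. This ranking is a description, as each window was chosen around a gene and differs in length from the bins.

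**Figure D2:**
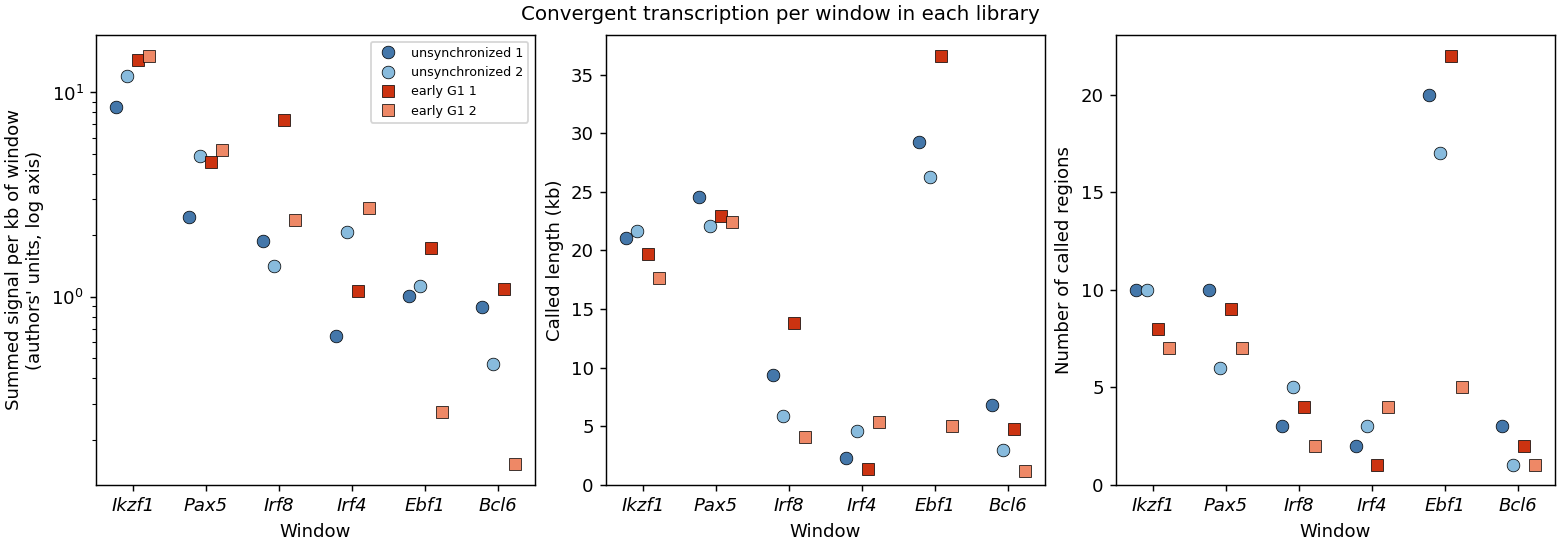
Summed signal per kb of window (log axis), called length in kb and number of called regions for each window and library (circles: unsynchronized; squares: early G1). Ikzf1 sits above all other windows in each library in summed signal, and early G1 replicate 2 has 5 regions at Ebf1 where the others have 17 to 22.

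The comparison of groups asked whether convergent transcription at these loci differed in early G1. A stretch without a call adds nothing to the summed signal of a window, so the sum also moves with the called length. By locus, 0 of the 6 windows passed the test, as did 0.0% of the 3235 windows and bins (limma on log2(summed signal in kb + 1), Benjamini-Hochberg adjusted p under 0.05). At an unadjusted p under 0.05, 0 of the windows stood out, against 9.06% of all windows and bins that were higher and 2.5% that were lower. The log2 change was above 0 for 4 windows and below 0 for 2, with 69.6% of all above 0. By region, 0 of the 17 shared regions passed, against 0.342% of all 4972 shared regions (0.302% were higher and 0.0402% lower). Without adjustment, at a p under 0.05, 2 were higher in early G1 (13.9% of all) and 1, the region at the Irf8 edge, was lower (0.945% of all). The median log2 change of the 17 was 0.43, beside 0.41 over all shared regions, and 14 of 17 were above 0, beside 78.0%.

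The groups did not overlap in 7 of the 17 regions with early G1 higher and in 1 with early G1 lower, while 43.9% and 4.67% of all shared regions behaved so. Of the 7, 2 were at Ikzf1, 2 at Irf8 and 1 each at Ebf1, Irf4 and Pax5. With the libraries brought to 1 common median over the shared regions, the median log2 change of the 17 was -0.01, and 8 were above 0 and 9 below. Over all shared regions the scaled median was -0.03, with 48.0% above 0.

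**Figure D3:**
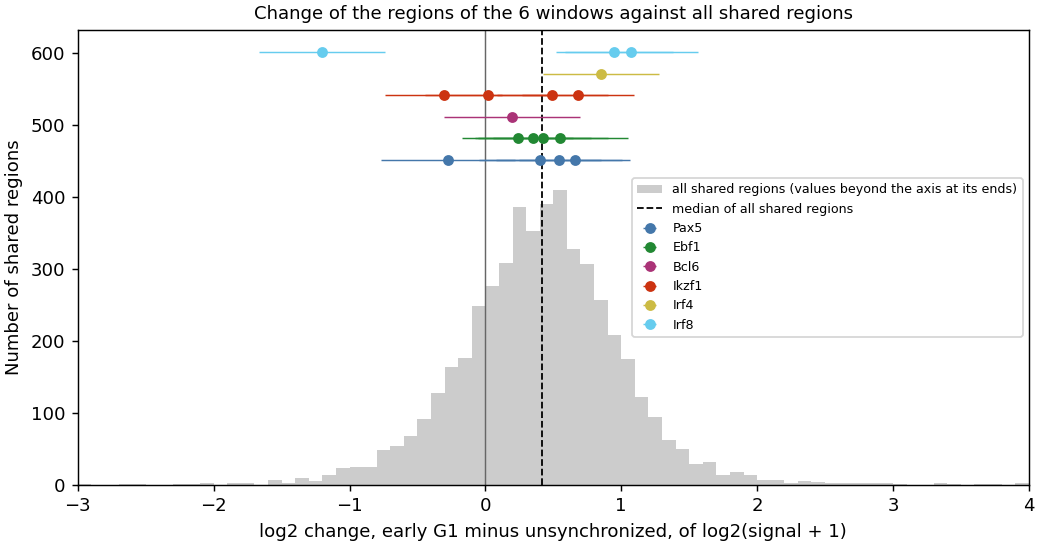
Log2 change of the 17 shared regions (points with standard errors, coloured by locus) above the distribution of the 4972 shared regions (grey bars, number of regions; dashed line: their median of 0.41). The points of the other 5 loci lie between -0.31 and 0.85, and Irf8 has both the highest points and the lowest one.

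At Ikzf1, 10 and 10 regions were called in unsynchronized cells and 8 and 7 in early G1, covering 21.1 and 21.7 kb against 19.7 and 17.6 kb. A single merged region of 11623 bp, chr11:11586223-11597845, carried 82.2% to 91.0% of the window's signal in each library. Its signal was 92.3 and 128.7 in unsynchronized cells and 171.4 and 179.9 in early G1, on 14404 and 18748 reads against 14818 and 18359. Both early G1 libraries were above both unsynchronized ones in signal, whereas their read numbers before scaling overlapped. The log2 change was 0.68 (SE 0.41, limma adjusted p = 0.44), and 0.22 after scaling to the library medians. With mean signal at the 98.5th percentile of all shared regions, this is the strongest region of the 6 windows, and its called lengths differed by only 1.02 times, from 10589 to 10810 bp. The unsynchronized libraries split it into 3 called pieces each and the early G1 libraries into 2, and the longest piece was 5980 and 6083 bp against 7565 and 9603 bp.

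The rest of the Ikzf1 window was weaker. At chr11:11656890-11659078 the signal was 21.2 and 21.6 in unsynchronized cells and 32.7 and 28.5 in early G1, without overlap (log2 change 0.49, SE 0.41, limma adjusted p = 0.57). The called length was shorter in early G1 (1472 and 1533 bp against 2038 and 2123 bp), and reads were 393 and 416 against 634 and 619. As signal times length the log2 change was 0.042, and after scaling to the library medians it was 0.046. The groups overlapped at chr11:11623387-11626439, where the signal was 27.2 and 42.3 against 23.2 and 31.9. They overlapped also at chr11:11674695-11678039, with 16.2 and 27.5 against 29.5 and 15.5. In this last region, however, the called length was 2882 and 3345 bp in unsynchronized cells but only 921 and 913 bp in early G1, with 686 and 1241 against 222 and 135 reads. A further region, chr11:11665070-11666403, was called in both unsynchronized libraries alone, with signals of 17.1 and 30.2 on 177 and 542 reads. As summed signal, the whole window had 1186 and 1693 against 2014 and 2119, with no overlap between the groups and a log2 change of 0.54, whose SE was 0.37 (limma adjusted p = 0.58). Of all windows and bins, 38.3% were likewise higher in both early G1 libraries, and 8.93% lower. Irf8 was the only other window without overlap.

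At Pax5, the regions called in all 4 libraries lay between 160.3 kb and the far end of the window. The 2 strongest were neighbours, chr4:44718094-44723851 and chr4:44724187-44727578, at the 92.3rd and 92.1st percentile of all shared regions in mean signal. The former had signals of 35.5 and 83.4 in unsynchronized cells and 69.6 and 91.5 in early G1, the latter 39.5 and 83.0 against 72.9 and 79.3. In both, unsynchronized replicate 1 was the lowest library. Their log2 changes of 0.54 (SE 0.46) and 0.40 (SE 0.45) had limma adjusted p-values of 0.58 and 0.67. Without unsynchronized replicate 1 they were -0.06 and -0.12.

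The longest region of the Pax5 window was chr4:44680296-44688972, which spans 8677 bp. Its signal was 22.1 and 26.4 in unsynchronized cells and 40.5 and 37.0 in early G1, on 2161 and 2771 against 2698 and 2952 reads. The groups did not overlap (log2 change 0.66, SE 0.41, limma adjusted p = 0.45), and the direction held without any 1 library. This change was at the 68.3rd percentile of all shared regions, and it was 0.21 after scaling to the library medians. The fourth shared region, chr4:44727657-44729912, had signals of 13.7 and 36.9 against 21.8 and 15.6, with 2096 and 2189 bp called in unsynchronized cells and 1106 and 1183 bp in early G1. The region chr4:44714396-44717619 was called in all libraries but early G1 replicate 1, at 10.05, 24.98 and 29.7. In total the window had a summed signal of 567 and 1127 against 1055 and 1203 (log2 change 0.49, SE 0.47, limma adjusted p = 0.66), and covered lengths of 24.6 and 22.1 kb against 23.0 and 22.4 kb. Unsynchronized replicate 1 was again the one library that stood low, and without it the log2 change of the window was -0.0007.

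Irf8 had the largest log2 change of the 6 windows, at 1.35 (SE 0.66, limma adjusted p = 0.48), which is at the 89.3rd percentile of all windows and bins. Its summed signal was 113 and 85.2 in unsynchronized cells and 441 and 142 in early G1. Both early G1 libraries were above both others, but early G1 replicate 1 was far above replicate 2, and without it the log2 change was 0.54. Most of the signal came from chr8:123260254-123272014, with signals of 13.4 and 23.1 against 33.9 and 36.2 on 1122, 620, 3069 and 1214 reads. The groups did not overlap there (log2 change 0.95, SE 0.43, unadjusted p = 0.044, limma adjusted p = 0.32). The called length was 5690 and 1989 bp in unsynchronized cells and 11097 and 3526 bp in early G1, so it varied up to 5.58 times between libraries. The log2 change of this region was 0.58 without unsynchronized replicate 1, 0.51 after scaling to the library medians and 1.87 as signal times length.

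The second Irf8 region, chr8:123283917-123286501, had the highest log2 change of the 17, with signals of 11.7 and 27.4 against 54.0 and 28.1 (log2 change 1.07, SE 0.49, limma adjusted p = 0.32). The groups were separate only by the small gap between 27.4 and 28.1. The log2 change was 0.50 without unsynchronized replicate 1, 1.65 without unsynchronized replicate 2 and 0.08 as signal times length. The lowest change was that of chr8:123239068-123240338 at the window's edge, with 19.3 and 41.7 in unsynchronized cells against 10.8 and 12.9 in early G1 (log2 change -1.20, SE 0.47, unadjusted p = 0.021, limma adjusted p = 0.27). Only the piece called in early G1 replicate 1 reaches into the window, and it measured 1214 bp where the others had 328, 320 and 425 bp. The log2 change was -0.67 without unsynchronized replicate 2, -1.64 after scaling to the library medians and -0.10 as signal times length. A region called in 1 library alone, chr8:123289333-123291517, had a signal of 5.42 in unsynchronized replicate 2.

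Irf4 held few regions, with 2 and 3 in unsynchronized cells and 1 and 4 in early G1. The single shared region was chr13:30851970-30853437, with signals of 18.2 and 27.1 against 48.4 and 34.7. Early G1 was higher in both libraries, and the log2 change of 0.85 (SE 0.43, unadjusted p = 0.064, limma adjusted p = 0.36) was at the 80.4th percentile of all shared regions. A longer block, chr13:30841093-30843849, was called in 3 libraries only. It had signals of 14.1 and 41.0 in unsynchronized cells and 40.4 in early G1 replicate 2, on 176, 1170 and 1039 reads, and no call in early G1 replicate 1. The window's summed signal of 38.7 and 125 against 64.0 and 163 therefore separated the replicate numbers and not the groups, as both replicates 2 were above both replicates 1 (log2 change 0.55, SE 0.77, limma adjusted p = 0.77). The log2 change was -0.28 without unsynchronized replicate 1 and -0.12 without early G1 replicate 2. Over the called length alone, the mean signal of the window was 16.7 and 27.4 in unsynchronized cells against 48.4 and 30.3 in early G1.

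Bcl6 had the lowest level, from 1 or 3 regions in unsynchronized cells and 2 or 1 in early G1. Its shared region, chr16:23984505-23988691, had signals of 11.2 and 11.01 against 18.1 and 9.05, so the early G1 libraries lay on either side of the unsynchronized pair (log2 change 0.20, SE 0.50, limma adjusted p = 0.86). Its called length was 4187 and 3002 bp against 3693 and 1174 bp, and its mean signal was at the 13.6th percentile of all shared regions although its length was at the 84.1st. The neighbour chr16:23989054-23990502 was called in both replicates 1 alone, at 6.44 and 8.97. Summed over the window the signal was 62.4 and 33.0 against 76.3 and 10.6 (log2 change -0.63, SE 0.95, limma adjusted p = 0.78), and the log2 change was 0.74 without early G1 replicate 2. Over the called length alone, the mean signal of the window was 9.16 and 11.01 in unsynchronized cells against 16.0 and 9.05 in early G1.

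**Figure D4:**
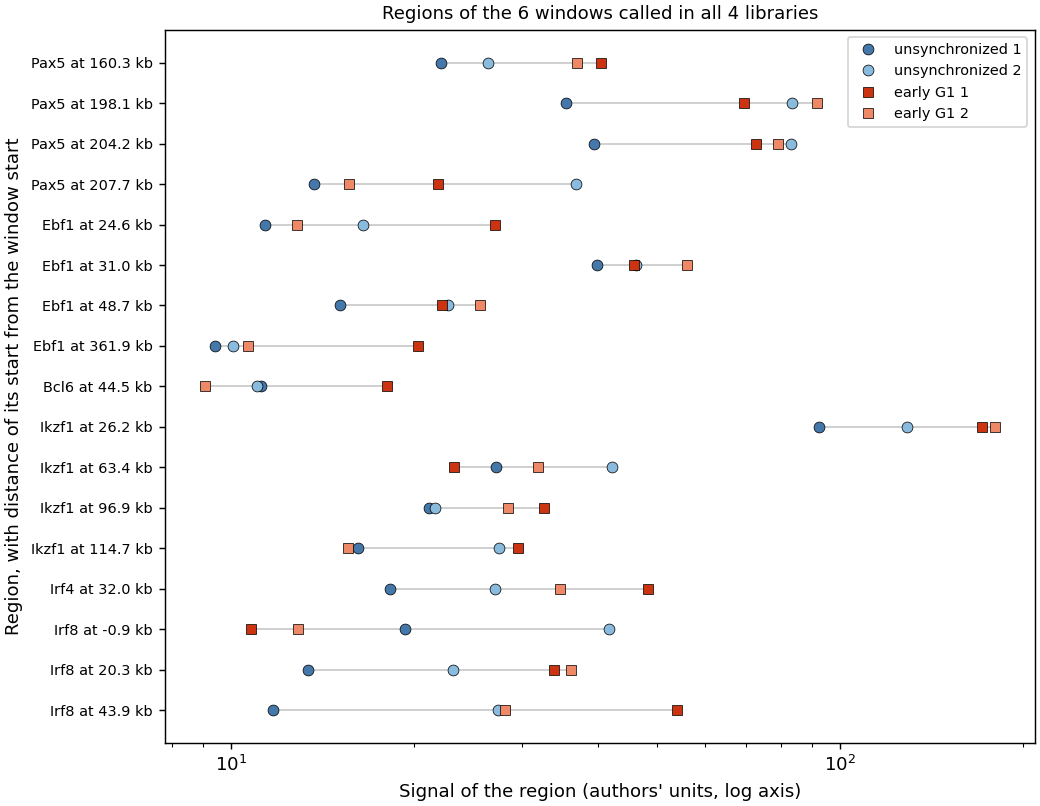
Signal of the 17 regions called in all 4 libraries (x axis: authors' units, log axis; circles: unsynchronized; squares: early G1; regions named by locus and distance from the window start). The Ikzf1 region at 26.2 kb is the strongest in every library. The groups are separate in 8 of the 17, with early G1 higher in 7 (43.9% of all shared regions) and lower in 1, the Irf8 edge region (4.67%).

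Ebf1, the widest window with 26 merged regions, had 4 regions (15.4%) that were called in all 4 libraries. The share was 24.6% over the whole series, and the counts were 4 of 10 at Pax5 and 4 of 13 at Ikzf1. The libraries held 20, 17, 22 and 5 regions, covering 29.3, 26.3, 36.6 and 4.98 kb. Early G1 replicate 2 was the lowest by far. At the other loci it held 7 regions against the 9 of early G1 replicate 1 at Pax5, 7 against 8 at Ikzf1, 4 against 1 at Irf4, 2 against 4 at Irf8 and 1 against 2 at Bcl6. Its 5 regions at Ebf1 held 1174 reads, where early G1 replicate 1 had 6372. Both values count called regions only, and why calls were missing was not tested. The summed signal of the window was 456 and 511 against 780 and 123 (log2 change -0.64, SE 0.87, limma adjusted p = 0.76). Its sign depended on that library, as the log2 change was 0.69 without early G1 replicate 2. Over the called length alone, the mean signal of the window was 15.6 and 19.5 in unsynchronized cells against 21.3 and 24.7 in early G1. The lower sum of early G1 replicate 2 thus went with its short called length and not with a lower signal where regions were called.

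None of the 4 shared regions at Ebf1 passed the test. The strongest, chr11:44431001-44433437, had signals of 39.9 and 46.2 against 45.9 and 56.2 (log2 change 0.24, SE 0.41, limma adjusted p = 0.79), with 2427 and 2437 bp called in unsynchronized cells and 1224 and 1035 bp in early G1. At chr11:44424605-44426226 the signals were 11.4 and 16.4 against 27.1 and 12.8, and at chr11:44448660-44449886 they were 15.1 and 22.7 against 22.2 and 25.6. Both overlapped between the groups. At chr11:44761894-44764022 they were 9.42 and 10.1 against 20.2 and 10.7 (log2 change 0.55, SE 0.49, limma adjusted p = 0.59). The groups did not overlap there, but early G1 replicate 2 lay just above the unsynchronized pair. A region called in both unsynchronized libraries but in no early G1 library was chr11:44712927-44715440, with signals of 6.61 and 10.2 on 181 and 345 reads.

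One stretch of the Ebf1 window had calls in both replicates 1 alone. Between 79.6 and 293.9 kb from the window start, unsynchronized replicate 2 had no call, and neither had early G1 replicate 2, whose stretch without a call ran from 49.8 to 362.8 kb. In this interval, which was chosen after its values were seen, early G1 replicate 1 held 10 regions and unsynchronized replicate 1 held 6, all 6 of them among the 10. Their signals ran from 5.48 to 31.6 in unsynchronized replicate 1 and from 6.05 to 61.5 in early G1 replicate 1. The strongest was chr11:44576319-44578813, at 31.6 and 61.5 on 932 and 1253 reads. A missing call gives no level, so how far transcription differed there was not measured.

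Of the 62 merged regions, 10 (16.1%) were called in both replicates 1 and in neither replicate 2, with 6 at Ebf1, 2 at Pax5, 1 at Bcl6 and 1 at Ikzf1, beside 4.30% of the whole series. The 6 at Ebf1 are those of the interval just described, and outside Ebf1 the count was 4 of 36 (11.1%), 1 of them the Ikzf1 region at the window edge. The reverse, a call in both replicates 2 alone, occurred at 0 of 62 (1.74% of the series). Calls in both unsynchronized libraries alone numbered 2 (4.98% of the series), and calls in both early G1 libraries alone 0 (3.70%). By bases, unsynchronized replicate 1 and early G1 replicate 1 shared 58.7% of their union in the windows, more than the 54.6% of the unsynchronized pair and the 37.2% of the early G1 pair. Both replicates 2 shared 46.1%, which is less than the unsynchronized pair. Over the genome these values were 39.5%, 45.9%, 37.5% and 36.9%. In the windows, unsynchronized replicate 1 and early G1 replicate 2 shared 43.4%, and unsynchronized replicate 2 and early G1 replicate 1 shared 44.7%. Unequal called lengths limit how high such a share can be. Early G1 replicate 2 covered 55.7 kb in the windows, where the other libraries covered 83.4 to 99.2 kb. No label says what the replicate numbers have in common, and their part in the calls was not tested.

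Where they were called, the 45 regions that lacked a call in some library had a lower median signal than the 17 shared ones. It was 10.1 and 15.1 against 18.2 and 27.4 in unsynchronized cells and 14.97 and 25.1 against 32.7 and 28.5 in early G1. The sets were split by the calls, which may themselves depend on signal, and the same contrast was not made for the whole series. A library without a call adds no value. The medians of the 45 thus rest on 26 and 22 regions in unsynchronized cells and on 27 and 8 in early G1. The 45 comprised 19 regions called in 1 library, 14 in 2 and 12 in 3. In 8 of the 12 it was early G1 replicate 2 that lacked the call (12.9% of the 62, against 6.57% of the series), and 6 of these 8 were at Ebf1. The strongest of them was chr11:44426561-44427067, with signals of 57.3 and 78.6 in unsynchronized cells and 96.3 in early G1 replicate 1, over called lengths of 375, 495 and 147 bp.

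RefSeq's gene table for GRCm38.p6 gives the nearest protein-coding neighbours as Melk and Zcchc7 for Pax5, Rnf145 and Clint1 for Ebf1, Rtp2 and Lpp for Bcl6, 4930512M02Rik and Fignl1 for Ikzf1, Dusp22 and Exoc2 for Irf4, and Cox4i1 and Foxf1 for Irf8. No other protein-coding gene overlaps any of the 6 there. The windows span 230 kb for Pax5, 450 kb for Ebf1, 70 kb for Bcl6, 140 kb for Ikzf1 and 60 kb each for Irf4 and Irf8, against gene lengths of 185.9, 390.0, 23.8, 87.97, 17.7 and 20.3 kb in that table. Each window thus holds sequence beyond its gene, and whether a region lies in an exon, an intron or outside the gene was not determined here.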

How the data were processed

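GRO-seq libraries of 2 unsynchronized and 2 early G1 samples were analysed, with groups and replicate numbers from the sample titles. The authors deposited 1 list of regions of convergent transcription per library, per the file headers, with a signal for each region, which the file names call a geometric mean. Alignment tools are listed in the submitters' processing notes (BWA 0.7.12 and HOMER, with build mm9). The rule by which regions were called is not stated in any source at hand.

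Overlapping regions (by 1 base or more) of different libraries were joined, and a library's value was the length-weighted mean of its regions. Shared regions were tested on log2(signal + 1), and the 6 windows together with 200 kb bins on log2(summed signal times length in kb + 1), with limma 3.58.1 in R 4.3.3 (lmFit, eBayes with trend, two-sided, Benjamini-Hochberg over all features, threshold 0.05) and the authors' scaling kept. Fold changes on this scale understate changes of low regions. Scripts were tested on simulated data. All shared regions of the windows were named, and of the others the longest per window, with regions called in both libraries of 1 group alone preferred. The Ebf1 interval and the regions chr11:44576319-44578813 and chr11:44426561-44427067 were chosen after their values were seen. The members, lists and tests were chosen with earlier results of these data known. Alternatives were the pseudocount, scaling, merging, filters, the replicate block and leaving out each library.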

Additional observations from a re-analysis of the deposited data

How the results depend on the processing

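Of the 17 shared regions and the 6 windows, 0 passed the threshold in limma under any alternative run. Over all shared regions, 17 passed as reported, but 0 after median scaling, 4 with the replicate block, 32 with low values left out, 2 without the trend, 1 as signal times length, 3 with merging within 1 kb and 1 to 119 when a library was left out. Over windows and bins the count was 0, but 4 with the replicate block and 0 to 35 when a library was left out. Same-numbered libraries deviated together only slightly (r = 0.10 over the shared regions and 0.12 over the windows and bins, across features). The differences in called length and region number ran from -32.8 to 10.8 kb and from -19 to 1 when a library was left out.

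Signs turned in 18 of 185 values for regions and 8 of 66 for windows, none of them called, and the cause was not tested. With median scaling, log2 changes became -0.42 at chr11:11674695-11678039, -0.0081 at chr11:44424605-44426226, -0.22 at chr11:44431001-44433437, -0.094 at chr11:44448660-44449886, -0.23 at chr16:23984505-23988691 and -0.054 at chr4:44724187-44727578. As signal times length, they became -1.69 at chr11:11674695-11678039, -0.86 at chr11:44431001-44433437 and -0.52 at chr16:23984505-23988691. With merging within 1 kb, chr4:44727657-44729912 was at 0.62. As unscaled reads, the windows were at -0.18 (Pax5), -0.13 (Ikzf1) and -0.12 (Irf4). With each library left out in turn, regions ranged from -0.42 to 0.46 at chr11:11674695-11678039, -0.62 to 0.0018 at chr11:11623387-11626439, -0.086 to 0.94 at chr11:44424605-44426226, -0.27 to 0.66 at chr16:23984505-23988691, -0.063 to 1.15 at chr4:44718094-44723851, -0.12 to 0.93 at chr4:44724187-44727578 and -0.96 to 0.41 at chr4:44727657-44729912. Windows ranged from -0.0007 to 0.99 at Pax5, -1.96 to 0.69 at Ebf1, -1.999 to 0.74 at Bcl6 and -0.28 to 1.38 at Irf4. Depth, if inferred rightly, was lower in both early G1 libraries, which limits what calls of weak regions can show.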
